A study of Mus musculus with 5375 samples.

Results

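The 8 genes described here belong to the signalling of the interleukin-6 (IL-6) cytokine family through STAT3 and to its targets, and they were followed in lung endothelial cells (ECs) and in metastasizing 4T1 tumour cells (TCs). The list was given by name: Il6st, Il6ra and Osmr (receptor chains), Stat3 (transcription factor), Socs3 (feedback inhibitor), and Lrg1, Bcl3 and Lcn2 (genes induced downstream). All 8 were found among the 35308 genes of the raw EC tables. The members were chosen by name with their levels and shares of cells per EC day, EC class and TC gate in view, that is, selected on these values. Differences of the 8 genes between days, classes and gates are therefore given as a description without a test, and tests are reported for the other genes of the pathway.

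Cytokines of the IL-6 family bind a receptor chain of their own (IL-6 receptor alpha, encoded by Il6ra, or the oncostatin M receptor, Osmr) and share the signalling chain gp130, encoded by Il6st. Janus kinases bound to gp130 phosphorylate STAT3, which enters the nucleus and raises genes of inflammation and the acute phase. One of these is Socs3, whose protein binds gp130 and dampens the signal. Lrg1 encodes a secreted leucine-rich glycoprotein that endothelium and liver make in inflammation and that modulates TGF-β signalling in vessels. Bcl3 encodes a nuclear protein of the IκB family that pairs with NF-κB p50 and p52. Lcn2 encodes lipocalin-2, a secreted protein that binds iron-carrying siderophores and is abundant in neutrophils and inflamed epithelium.

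Cells came from female BALB/c mice of 8 to 12 weeks. ECs were sorted from whole lungs of uninjected mice (day 0, 4 animals) and of mice 1.5 days (3 animals) and 3.5 days (3 animals) after 4T1-GFP cells had been given into the tail vein. 4T1-GFP is a mouse breast cancer line of the same strain that carries a green fluorescent protein, and the cells had been stained with CellTrace, which dividing cells dilute. TCs comprised 1 pool from culture before injection, intravascular and extravascular cells of 4 animals on day 1.5, told apart by an antibody against H-2Kd given into the blood, and latent (dye kept, 4 animals) and proliferative cells (dye diluted) on day 3.5. The deposited annotation gives all proliferative cells to 1 animal, which is also that of 1 latent sum, whereas the study's methods describe matched latent and proliferative cells of 4 replicates, and they were handled here as 1 sum. The EC gate was CD31+ and CD45-, PDPN-, LYVE1- and TER119-, so that blood cells and lymphatic endothelium were sorted away.

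Every cell was sequenced as a library of its own without molecular identifiers, and the reads of the kept cells were summed per animal and group. The 10 EC sums held 75.6 to 129.5 M reads from 2479 of 3455 sorted ECs, the intravascular, extravascular and latent TC sums 31.9 to 49.9 M reads, the proliferative sum 163.5 M and the culture pool 92.1 M reads, from 1566 of 1920 sorted TCs. The 8 defining EC genes (Pecam1, Cdh5, Kdr, Tek, Cldn5, Erg, Egfl7 and Tie1) were all detected in ECs and summed to 8976 to 15319 CPM (reads per 1000000 reads of the sum) there and to 19.7 to 51.1 CPM in TCs. The 5 keratin and adhesion genes that mark 4T1 cells summed to at most 10.9 CPM in ECs and to 2349 to 5484 CPM in TCs. In ECs the 10 neutrophil genes summed to 17.6 to 48.8 CPM and the 10 macrophage and leukocyte genes to 3.35 to 50.5 CPM. The lung epithelial genes summed to 2.63 to 119.6 CPM in ECs, the mural and stromal genes to 1.83 to 19.9 CPM and the erythroid and platelet genes to 25.5 to 1277 CPM, the highest value on day 0. Of the 4 day 0 animals, 2 had been sorted together with the day 1.5 animals and 2 with the day 3.5 animals, so each later day also had day 0 animals of its own sort. Day 0 animals had received no injection, so that the injection and the TCs cannot be told apart. Each EC lane held cells of 1 day, so that EC day and lane cannot be told apart. The TC gates did not share sequencing lanes, and gate, lane and, for day 3.5 against day 1.5, time cannot be told apart in comparisons of TCs.

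Lrg1 and Bcl3 were the members whose EC levels lay apart between uninjected and injected animals. The sequence just upstream of their starts is printed, on the strand of the gene. It is followed by the stretch upstream of the RefSeq start of Socs3 that held the pattern TTCNNNGAA. This pattern, the core of a STAT binding site, reads the same on both strands. In the annotation used for exon lengths Socs3 spans chr11:117966079-117970047, so that this stretch lies within the gene there. The sequences were taken from RefSeq on the build GRCm38 (Lrg1, chr17:56122002-56122196, minus strand; Bcl3, chr7:19822825-19823005, minus strand; Socs3, chr11:117969502-117969530, minus strand). Capitals mark the pattern.
Lrg1: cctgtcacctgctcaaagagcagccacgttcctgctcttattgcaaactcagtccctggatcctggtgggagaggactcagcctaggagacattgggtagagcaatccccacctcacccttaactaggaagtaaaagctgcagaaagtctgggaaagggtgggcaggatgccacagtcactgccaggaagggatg
Bcl3: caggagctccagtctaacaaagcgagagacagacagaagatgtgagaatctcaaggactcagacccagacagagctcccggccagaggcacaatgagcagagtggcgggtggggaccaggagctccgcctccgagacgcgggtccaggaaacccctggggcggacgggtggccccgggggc
Socs3: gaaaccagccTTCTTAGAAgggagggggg
Of the windows of 300 bases around the RefSeq starts of the 8 genes (250 bases before and 50 after), 1 held the pattern, that of Socs3. Its first base lay 154 bases upstream of the RefSeq start. Among all 32851 promoter windows of the same length 8.3% held it, and among the 48 windows found for other genes of the pathway 5 did. A match is a run of letters and says nothing of binding in these cells.

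In ECs Lrg1 was the member with the highest level per length on every day. Divided by the length of the annotated exons (1408 bases for Lrg1, on chr17:56119678-56122001), it stood at 50.1 ± 28.0 CPM per kb on day 0 (SD, n = 4), 342 ± 277 on day 1.5 (SD, n = 3) and 552 ± 451 on day 3.5 (SD, n = 3). The next member, Il6st, reached 11.1 ± 3.11, 16.7 ± 3.80 and 14.7 ± 1.96 CPM per kb on the same days. Lcn2 was the lowest on all 3 days, and Il6ra was the second lowest on day 0 and day 3.5. Between day 0 and day 1.5 Bcl3 moved from 2.19 ± 1.37 to 13.4 ± 3.21 CPM per kb, which moved its rank from below Osmr to next after Il6st.

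Lrg1 lay above the day 0 range in every injected animal. Its level was 98.2, 97.6, 14.3 and 71.7 CPM in the 4 day 0 animals, 931, 290.0 and 224 CPM in the 3 day 1.5 animals and 204, 670 and 1459 CPM in the 3 day 3.5 animals. All 6 injected animals were above all 4 uninjected ones, and the days after injection overlapped with each other. Against day 0 the log2 fold change was 2.73 ± 0.78 (SE) on day 1.5 and 3.39 ± 0.80 on day 3.5, and 0.66 ± 0.82 between the later days. Within animals sorted together the level was 4.92 times that of day 0 on day 1.5 and 18.1 times on day 3.5, without overlap on either. Without the day 1.5 animal at 931 CPM the log2 fold change was 1.81 on day 1.5, and without the day 3.5 animal at 1459 CPM it was 2.56 on day 3.5.

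The share of ECs with an Lrg1 read was likewise higher in every injected animal. It was 7.21, 8.41, 4.27 and 11.1% on day 0, 63.6, 36.9 and 35.5% on day 1.5, and 24.8, 61.0 and 71.8% on day 3.5. No day 0 animal came near an injected one. When every cell was thinned to 50000 reads, which left out 182 shallower ECs, the ranges were 1.55 to 8.18%, 23.4 to 41.2% and 18.1 to 51.3%. In TCs 0 of 369 cultured, 0 of 325 intravascular, 0 of 306 extravascular, 3 of 329 latent and 1 of 237 proliferative cells had a read. Among ECs with a read the median Lrg1 level per cell was 5.02, 54.2, 27.9 and 277 CPM in the day 0 animals, 19.7, 38.8 and 33.4 CPM on day 1.5, and 100.5, 217 and 208 CPM on day 3.5. The day 1.5 medians lay within the range of day 0, where few cells carried the value (9 to 20 per animal, against 66 to 199 later). On day 0 a single cell held 32.6 to 60.5% of an animal's Lrg1 reads, and later 8.79 to 26.1%. A sum of CPM cannot tell more expressing cells from more RNA per cell, and these per-cell values are therefore given beside it.

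**Figure D1:**
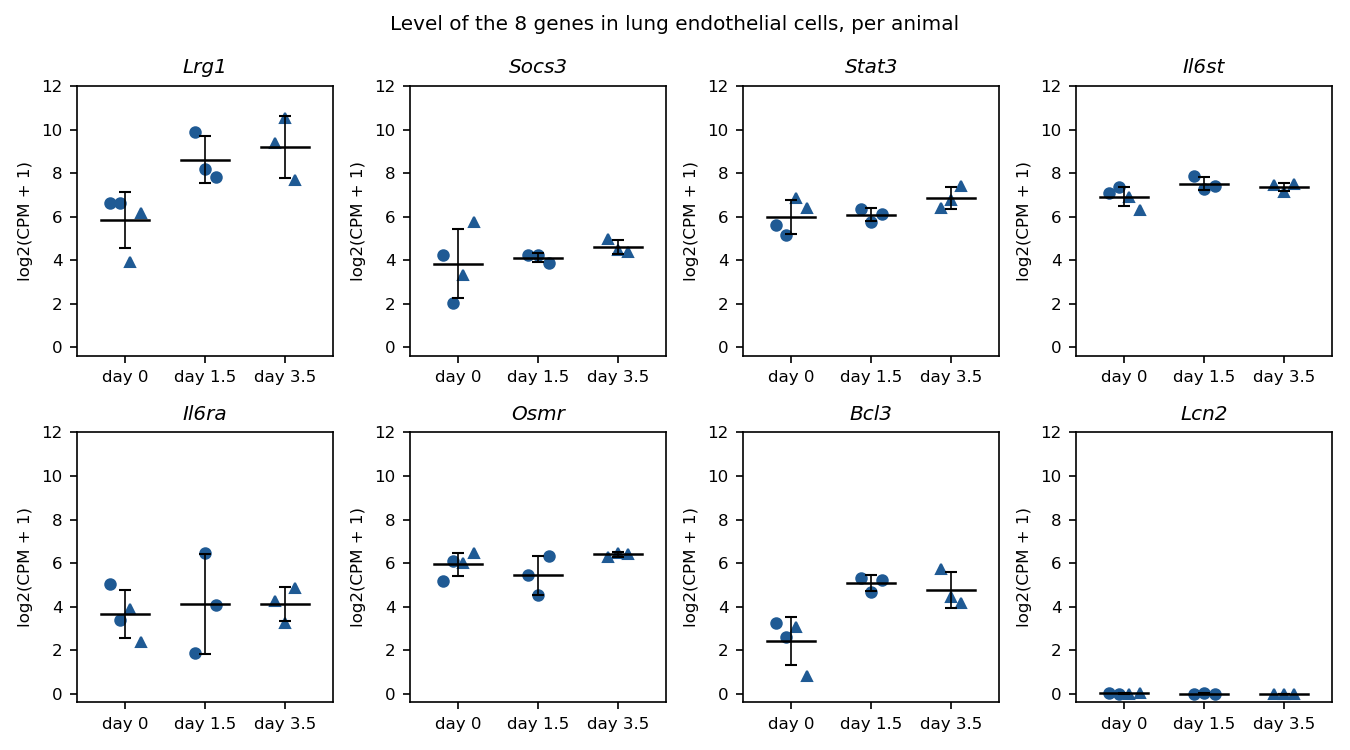
Level of the 8 genes in ECs as log2(CPM + 1), 1 point per animal, by day (4, 3 and 3 animals). Circles are animals sorted on day 1.5 and triangles animals sorted on day 3.5, lines are means and bars SD on the log scale. Lrg1 and Bcl3 lie above the day 0 animals in all 6 injected animals, the other members overlap, and Lcn2 lies at or near 0 throughout.

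Bcl3 showed the same separation at lower levels. Its CPM were 8.51, 5.08, 7.30 and 0.78 on day 0, 38.8, 24.2 and 36.8 on day 1.5, and 17.2, 52.0 and 20.7 on day 3.5. Again the lowest injected animal lay above the highest uninjected one. The log2 fold change was 2.58 ± 0.73 (SE) on day 1.5 and 2.42 ± 0.73 on day 3.5, and -0.16 ± 0.77 between these days. With limma-trend on mean deposited values Bcl3 differed less from day 0, by 1.264 ± 0.186 log2 (SE) on day 1.5 and 0.976 ± 0.186 on day 3.5. Within the sorts the ratios to day 0 were 4.90 and 7.42. Cells with a Bcl3 read made up 4.44 to 8.85% of ECs per animal on day 0, 17.1 to 27.2% on day 1.5 and 19.5 to 24.4% on day 3.5, without overlap with day 0.

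Among the 7 members with enough reads for the fit over all genes, Lrg1 and Bcl3 were the 2 whose animals did not overlap between day 0 and day 1.5, both higher, and the same 2 did so on day 3.5. Over all 17585 genes tested, 4.7% were higher without overlap on day 1.5 and 4.87% on day 3.5. Because both comparisons share the day 0 animals, they are not separate evidence. Socs3 and Stat3 were higher without overlap on day 3.5 than on day 1.5, where 4.7% of all genes were. Since the list was chosen with such values in view, nothing is read from these counts.

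The signalling chain gp130 differed more in the share of cells than in the level. Il6st stood at 133, 161, 119.9 and 77.9 CPM on day 0, 233, 152 and 171 CPM on day 1.5, and 179, 173 and 139 CPM on day 3.5. The days overlapped, and the log2 fold changes against day 0 were 0.54 ± 0.28 and 0.35 ± 0.28 (SE). Cells with an Il6st read were 21.7 to 24.2% on day 0, 33.8 to 40.9% on day 1.5 and 32.0 to 44.1% on day 3.5, so that every injected animal exceeded every uninjected one. At equal depth the ranges were 12.6 to 15.8%, 23.9 to 25.9% and 22.1 to 29.3%. By the share of cells 3 of 8 members (Lrg1, Il6st and Bcl3) were higher without overlap on day 1.5 than on day 0 and 5 of 8 on day 3.5, where 8.24% and 13.9% of all genes were. At 50000 reads per cell the counts were again 3 and 5 of 8, with Stat3 in place of Socs3 on day 3.5, against 6.07% and 13.5% of all genes, and nothing is read from them.

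The cytokine-specific chains showed no separation of days in level. Osmr was measured at 35.3, 68.2, 64.2 and 86.4 CPM on day 0, 42.4, 22.4 and 80.5 CPM on day 1.5, and 85.2, 76.7 and 88.2 CPM on day 3.5. The 3 day 3.5 animals were close together and lay around the highest day 0 animal. By the share of cells Osmr was higher on day 3.5 (26.3 to 35.0%) than on day 0 (14.9 to 22.3%) in every animal. Il6ra was the sparsest receptor gene among the members, found in 5.11 to 11.7% of ECs in every animal. Its CPM ranged from 4.17 to 32.2 on day 0, 2.65 to 87.0 on day 1.5 and 8.56 to 27.7 on day 3.5, and single cells held 23.3 to 69.0% of an animal's Il6ra reads. Its log2 fold change of 1.2 ± 1.00 (SE) on day 1.5 turned to -0.74 without the animal at 87.0 CPM.

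Over all animals the levels of Stat3 and its inhibitor Socs3 overlapped between day 0 and both later days. Stat3 stood at 47.5, 34.1, 114.9 and 82.6 CPM on day 0, 81.1, 53.0 and 69.4 CPM on day 1.5, and 170.1, 83.9 and 106.6 CPM on day 3.5. The day 0 animals fell apart by sort, with 34.1 and 47.5 CPM in those sorted on day 1.5 and 82.6 and 114.9 CPM in those sorted on day 3.5. Within the day 1.5 sort Stat3 was 1.66 times that of day 0 without overlap, and within the day 3.5 sort 1.22 times with overlap. The difference of day 3.5 over day 1.5 was 0.82 ± 0.47 log2 (SE), and -0.45 ± 0.55 with sort day as a covariate, which was chosen after seeing the data. Socs3 was measured at 18.1, 3.14, 8.88 and 53.3 CPM on day 0, 18.1, 17.7 and 13.7 CPM on day 1.5, and 19.9, 30.7 and 21.4 CPM on day 3.5. The highest and lowest animals were both uninjected, and in the highest a single cell held 64.6% of the reads. Its difference of 0.53 log2 on day 3.5 over day 1.5 was -1.06 ± 1.23 (SE) with sort day as a covariate. Cells with a Socs3 read were 8.56 to 17.8% on day 0, 13.7 to 20.1% on day 1.5 and 19.5 to 22.5% on day 3.5.

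**Figure D2:**
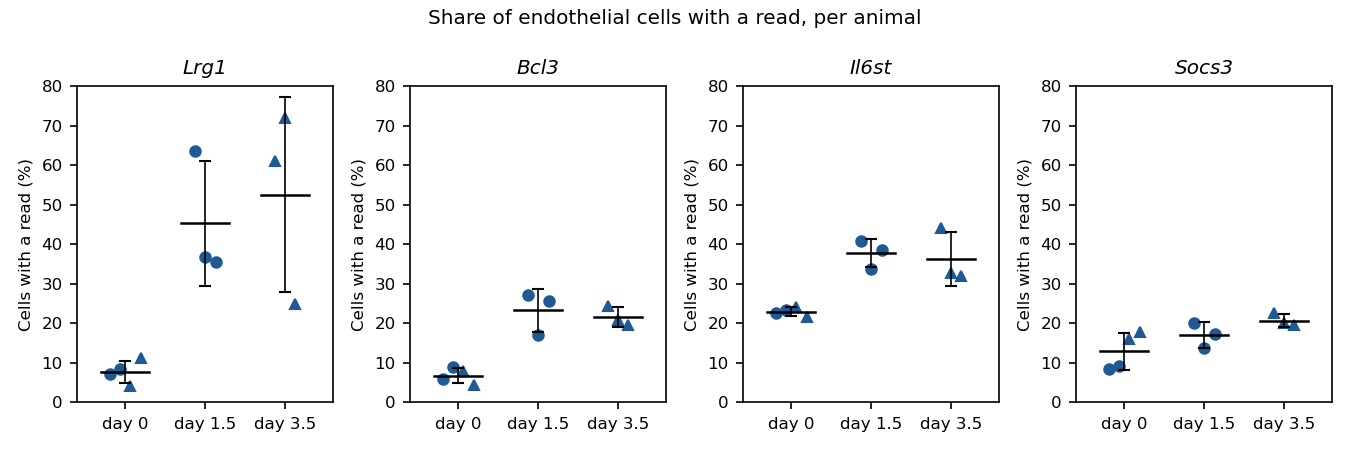
Share of ECs with at least 1 read of Lrg1, Bcl3, Il6st or Socs3 in percent, 1 point per animal, by day. Circles are animals sorted on day 1.5 and triangles animals sorted on day 3.5, lines are means and bars SD. Lrg1, Bcl3 and Il6st are above the day 0 animals in all 6 injected animals. Over all animals Socs3 overlaps with day 0 on day 1.5 but not on day 3.5, and it does not overlap among the animals sorted on day 1.5.

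Lcn2 was hardly detected in ECs. Its reads came from 2 of 839 day 0 cells, 1 of 941 day 1.5 cells and 0 of 699 day 3.5 cells, which allows a share of up to 0.429% on day 3.5. No animal exceeded 0.04 CPM, and the gene had too few reads for the fit.

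Within animals, Lrg1 cells held Socs3 reads more often than other cells. Socs3 was detected in 24.2 ± 10.2% of ECs with an Lrg1 read and in 12.8 ± 2.55% of those without (SD, n = 10 animals), and the first share was the higher in 9 of 10 animals. For Bcl3 the shares were 18.8 ± 12% and 14.2 ± 7.05% (higher in 8 of 10), and for Stat3 43.2 ± 12.2% and 44.4 ± 5.08% (6 of 10). The median number of detected genes was 1826.5 to 3111 in Lrg1 cells and 1977.5 to 2867.5 in the others, and its part in these shares was not tested. These values rest on the cells whose EC levels chose the list and are a description.

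Across the 10 EC animals, Bcl3 was the member whose log2 level ran closest to Lrg1 (Pearson r 0.68), followed by Il6st (0.56) and Socs3 (0.32), while Stat3 (0.09), Osmr (-0.01) and Il6ra (-0.11) did not follow it. Of all 8787 genes with a mean of at least 10 CPM, the 5 most like Lrg1 were Igbp1 (r 0.91), the predicted gene Gm28437 (0.89), Limd2 (0.89), Ifi27l2a (0.87) and Nploc4 (0.87). Igbp1 encodes a regulatory partner of protein phosphatase 2A and Ifi27l2a an interferon-induced protein. Ifi27l2a averaged 6.88 CPM on day 0, 48.5 on day 1.5 and 67.7 on day 3.5, and the other 4 changed less. The points share their days and sorts, so these correlations are given without a p.

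The other genes of the pathway were taken from a list of 66 (ligands, receptors, kinases, inhibitors, targets, acute-phase genes and the partners of Lrg1, Bcl3 and Lcn2), of which 55 could be tested in ECs. In edgeR 0 of them passed between any EC days after Benjamini-Hochberg adjustment over all genes, as it did for 0% of all 17585 genes. At an unadjusted p under 0.05 it passed 7 of 55 for day 1.5 and 7 for day 3.5 against day 0, and 5 between the later days, and 8.09%, 8.76% and 4.54% of all genes. DESeq2 called 1 (Birc5), 3 (Birc5, Fgb and Serpina3n) and 1 (Fgg), and limma-trend, run on each animal's mean of the deposited values, called 2 (Cebpd and Vegfa), 5 (Ccnd1, Cebpd, Il4ra, Mcl1 and Nfkbia) and 0. The median log2 fold change of the 55 genes was -0.03, 0.01 and 0.21, against -0.05, -0.06 and -0.00033 over all genes. Over all genes DESeq2 called 355, 474 and 124, and limma-trend 282, 423 and 2 of 10400.

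Of the ligands, ECs held reads of Clcf1 (14.5 ± 10.4 CPM on day 0, SD, n = 4, 7.06 ± 3.21 on day 1.5 and 27.9 ± 17.0 on day 3.5, n = 3 each) and of Il11 (2.52 ± 2.17, 2.83 ± 2.21 and 2.15 ± 0.80 CPM). Il6, Osm and Lif, the namesake ligands of the family, stood at 0.01 CPM or less in every EC group mean. The leukaemia inhibitory factor receptor, Lifr, stood at 87.3 ± 31.7, 106.4 ± 11.2 and 106.1 ± 2.54 CPM, and the kinase gene Jak1 at 284 ± 73.4, 261 ± 67.6 and 238 ± 25.3 CPM. Jak2 (7.76 to 9.95 CPM) and Tyk2 (31.5 to 42.4 CPM) were lower than Jak1 in the mean of every day. None of these was called between days.

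ECs kept by the authors were split by the deposited table of capillary cells, which held 2293 of the 2479 ECs, while the other 186 are called non-capillary here. The non-capillary sums held 8 to 34 cells per animal. Lrg1 was lower in capillary than in non-capillary cells, by 2.63 ± 0.69 on the log2 scale (SE, edgeR fit with the animal as a block, n = 10 animals). Capillary levels were 41.1, 79.8, 15.1 and 46.4 CPM on day 0, 581, 200.2 and 198 CPM on day 1.5, and 177, 589 and 1051 CPM on day 3.5. Non-capillary levels were 1093, 343, 0 and 524 CPM on day 0, 4813, 1440.1 and 465 CPM on day 1.5, and 475, 1644 and 6744 CPM on day 3.5. The non-capillary level was the higher in 9 of 10 animals, the exception being the animal with no Lrg1 read in its 8 non-capillary cells. The day 0 non-capillary levels rested on 7 of 43 cells, and without the cell with most Lrg1 reads in each animal they were 0, 152, 0 and 134 CPM. Without the top cell of each class the non-capillary level was the higher in 8 of 10 animals. Non-capillary cells, 5.13%, 8.71% and 8.73% of the kept ECs on the 3 days, held 37.8%, 38.3% and 27.9% of the Lrg1 reads and 5.70%, 8.46% and 7.90% of all reads. In capillary cells alone the log2 fold change over day 0 was 2.82 on day 1.5 and 3.68 on day 3.5 for Lrg1 and 2.68 and 2.50 for Bcl3.

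Il6st was lower in capillary cells by 1.60 ± 0.43 log2 (SE). It averaged 142 ± 48.1 CPM in capillary and 325 ± 143 CPM in non-capillary cells (SD, n = 10). It was higher in non-capillary cells in 8 of 10 animals by level and in 10 of 10 by the share of cells (30.3 ± 7.99% against 46.4 ± 11.1%). Without the top cell of each class the non-capillary level of Il6st was the higher in 4 of 10 animals. The median log2 fold change of all genes was 1.85 in this comparison, whereas the median of the members was -0.72, and many genes had no read in the small non-capillary sums. Osmr differed by -1.01 ± 0.72 log2 (SE), and its share of cells was higher in non-capillary cells in 10 of 10 animals. By level Osmr was higher there in 6 of 10 animals, and in 2 of 10 without the top cell of each class. The log2 fold changes of Socs3 (-0.72 ± 1.32), Stat3 (-0.47 ± 0.72), Il6ra (0.25 ± 1.34) and Bcl3 (1.62 ± 1.2) were imprecise, and Bcl3 was higher in non-capillary cells in 2 of 10 animals.

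**Figure D3:**
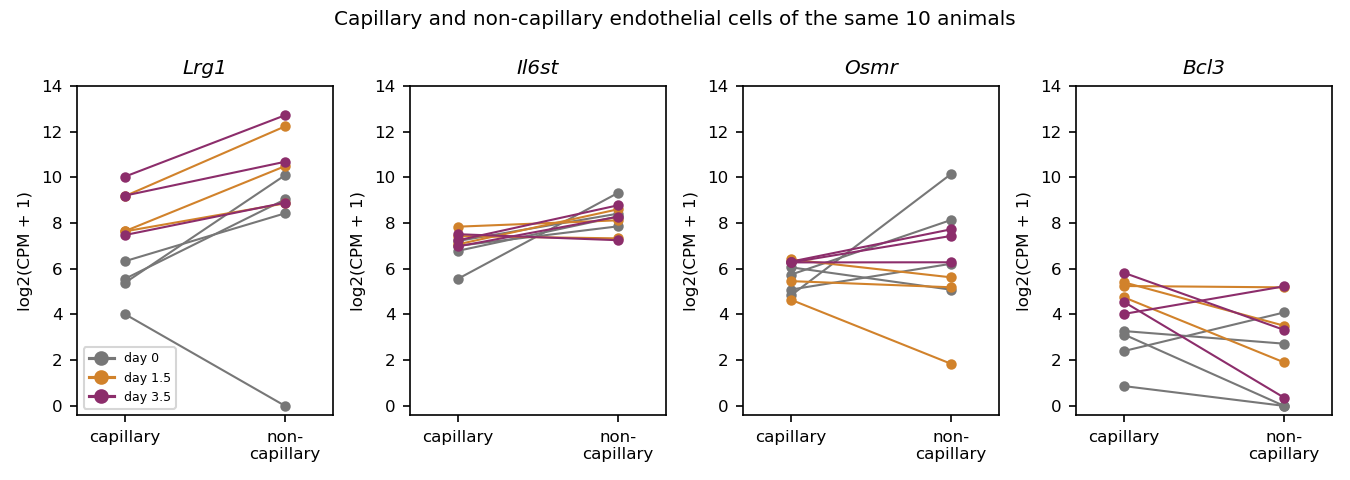
Level of Lrg1, Il6st, Osmr and Bcl3 as log2(CPM + 1) in capillary and non-capillary ECs, with a line for each of the 10 animals, coloured by day. The Lrg1 line rises towards non-capillary cells in 9 animals and the Il6st line in 8, and Lrg1 is higher on the later days than on day 0 in capillary cells.

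Of the 57 other pathway genes tested by class, 12 were called higher and 3 lower in capillary cells by edgeR, where 20.2% of all 18220 genes were called, 18.6% higher and 1.59% lower. The 3 lower were Fos (-1.91 ± 0.40 log2, adjusted p = 0.00492), an immediate early gene, and Id1 (-0.94 ± 0.18, adjusted p = 0.00335) and Id3 (-1.11 ± 0.15, adjusted p = 0.000302), targets of BMP and TGF-β signalling in endothelium. Id1 averaged 2114 ± 420 CPM in capillary and 3269 ± 1729.8 CPM in non-capillary cells, and Id3 2518 ± 686 and 4206 ± 2063 CPM (SD, n = 10). The 12 higher genes were mostly sparse: Ptpn6, Saa1, Saa2, Fga and Orm1 had no read in any of the 10 non-capillary sums, and Jak2 (9.65 ± 6.66 against 0.30 ± 0.83 CPM), Cebpb, Fgb, Pias3, Smad1, Smad5 and Birc5 had none in 2 to 9 of them. Smad5, which passes on BMP signals, stood at 81.5 ± 54.0 CPM in capillary and 4.45 ± 6.83 CPM in non-capillary cells. The calls of Fos, Id1, Id3, Jak2, Smad5 and Fgb were kept without each of the 10 animals in turn, and each of the other 9 was lost without at least 1 of them. DESeq2 did not call the 5 genes without a non-capillary read, nor Fgb. Limma-trend did not call Smad5 (adjusted p = 0.0887), Birc5, Pias3 or Smad1. Without the animal as a block Cebpb, Pias3 and Smad1 were not called, and Cebpb turned to -0.36 log2. With the size factors of DESeq2 Birc5 and Smad1 were lost, and without a filter Fga, Saa2 and Smad1. Saa1 and Saa2 are near-identical copies whose reads may be split between them. The TGF-β co-receptor gene Eng, at 1584 ± 162 and 1498 ± 524 CPM, was not called.

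In TCs Lrg1 was hardly detected. It had no read in the culture pool, in any intravascular or in any extravascular animal, and the 0 of 369, 0 of 325 and 0 of 306 cells allow shares of up to 0.813%, 0.923% and 0.980%. The latent animals stood at 0, 0.76, 0 and 2.82 CPM, from 3 of 329 cells, and the proliferative sum at 0.03 CPM from 1 of 237 cells. The order of Lrg1 levels ran from day 3.5 and day 1.5 ECs, which overlapped, through day 0 ECs to TCs. Per length Lcn2 took the first place among the members in latent TCs with 54.9 ± 49.4 CPM per kb (SD, n = 4), ahead of Il6ra with 2.73 ± 0.36, whereas it was last in ECs. It was also first in culture (2.46), intravascular (2.58 ± 1.45) and proliferative TCs (17.7), and second after Bcl3 in extravascular TCs (1.64 ± 0.87 against 2.51 CPM per kb).

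By summed level Lcn2 was the member that differed most between latent and extravascular TCs. It was measured at 6.46 CPM in culture, at 9.25, 9.0, 1.13 and 7.64 CPM in intravascular cells, at 6.65, 5.78, 1.90 and 2.86 CPM in extravascular cells, at 319, 139, 8.54 and 109 CPM in latent cells, and at 46.3 CPM in the proliferative sum. All 4 latent animals were above all extravascular ones, the lowest by little. The difference between latent and extravascular cells was 4.92 ± 0.92 log2 (SE), between 4.15 and 5.31 without any single animal. Its size depended on the method, since limma-trend on mean deposited values gave 1.198 ± 0.169 log2 (SE). Cells with an Lcn2 read made up 31.3, 15.3, 11.9 and 17.5% of latent cells and 5.33, 1.25, 1.45 and 4.88% of extravascular cells, and 13.9% of the proliferative cells (exact 95% interval 9.78 to 19%, counting error only). Few cells carried the level, since 11 of the 62 latent cells with a read exceeded 1000 CPM and the highest reached 9879 CPM. The summed macrophage and leukocyte genes were 246, 8.72, 6.77 and 155 CPM in the latent animals, with Lyz2 leading in the highest ones (221 and 128 CPM). Leaving out cells in which these genes reached 100 CPM, a choice made after seeing the data, left Lcn2 at 285, 141, 8.58 and 98.2 CPM. The neutrophil genes summed to 67.8 to 137 CPM in latent and to 133 to 196 CPM in extravascular cells.

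**Figure D4:**
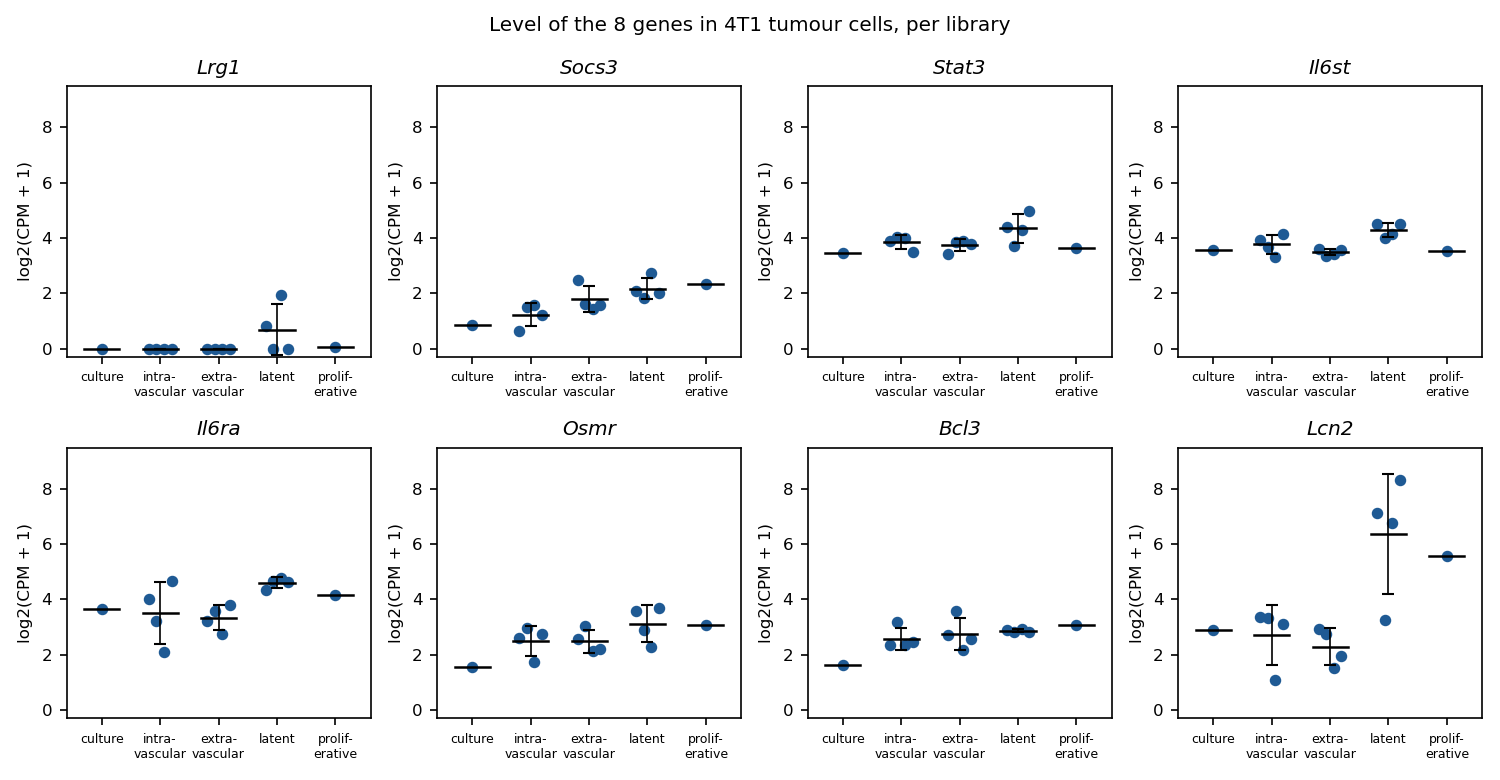
Level of the 8 genes in TCs as log2(CPM + 1), 1 point per animal, with 1 sum each for culture and proliferative cells, by gate (1, 4, 4, 4 and 1 libraries). Lines are means and bars SD on the log scale. Latent animals are highest for Lcn2, Il6ra and Il6st relative to extravascular animals, and Lrg1 stays at or near 0.

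Of the receptor chain genes, Il6st and Il6ra were higher in latent than in extravascular cells without overlap, and Osmr overlapped. Il6st stood at 21.7, 21.6, 15.0 and 16.5 CPM in latent and at 11.2, 9.28, 9.64 and 10.9 CPM in extravascular cells, and the difference was 0.73 ± 0.21 log2 (SE). Il6ra stood at 24.0, 19.1, 24.7 and 26.4 CPM against 8.42, 10.9, 5.78 and 12.9 CPM, a difference of 1.17 ± 0.46 log2. The members without overlap numbered 3 (Lcn2, Il6st and Il6ra), where 10.4% of all 19249 genes were higher without overlap. Osmr (0.65 ± 0.41 log2), Stat3 (0.57 ± 0.27), Socs3 (0.36 ± 0.47) and Bcl3 (-0.12 ± 0.36) overlapped.

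By the share of cells with a read, Il6ra differed by most percentage points (24.6), and by ratio Lcn2 differed more (19% against 3.23%). Il6ra was found in 43.8, 49.4, 54.8 and 53.8% of latent cells and in 26.7, 27.5, 24.6 and 24.4% of extravascular cells. Socs3 (24.3 ± 1.43% against 12 ± 4.30%), Stat3 (66.6 ± 3.02% against 57.6 ± 3.71%), Osmr (29.4 ± 7.28% against 14.4 ± 1.15%) and Lcn2 did not overlap either (SD, n = 4). So 5 of 7 members were higher without overlap, where 19.8% of all genes were. Latent cells also held more detected genes (medians of 6554.5 to 6869.5 per animal against 5721 to 6080.5). At 50000 reads per cell, Il6ra (33.9 ± 3.68% against 14.7 ± 4.30%), Il6st (31.2 ± 6.50% against 17.3 ± 1.53%), Bcl3 (15.8 ± 2.41% against 10.5 ± 1.27%) and Lcn2 (12.5 ± 6.27% against 2.63 ± 1.47%) did not overlap (SD, n = 4), whereas Socs3, Stat3 and Osmr did. These were 4 of 7 members, against 15.9% of all genes, and nothing is read from either count.

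Between extravascular and intravascular cells the levels of all members overlapped, with log2 fold changes from -0.71 ± 0.81 (SE, Lcn2) to 0.78 ± 0.47 (Socs3). By the share of cells Osmr was lower in extravascular (13.3 to 15.9%) than in intravascular cells (20 to 26.8%) without overlap, as were 11.8% of all genes. At 50000 reads per cell the Osmr ranges of 6.67 to 11.6% and 11.4 to 15.6% overlapped, and 7.28% of all genes were lower without overlap. The proliferative cells had no replicate, and their SE rest on the spread within the other gates. Against extravascular cells Lcn2 was higher in them by 3.29 ± 1.08 log2, and Il6st differed by -0.09 ± 0.33. With limma-trend these differences were 0.68 ± 0.27 and -0.26 ± 0.43. Latent over proliferative cells, which share an animal in the annotation, gave 0.82 ± 0.34 log2 for Il6st and 1.63 ± 1.38 for Lcn2.

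**Figure D5:**
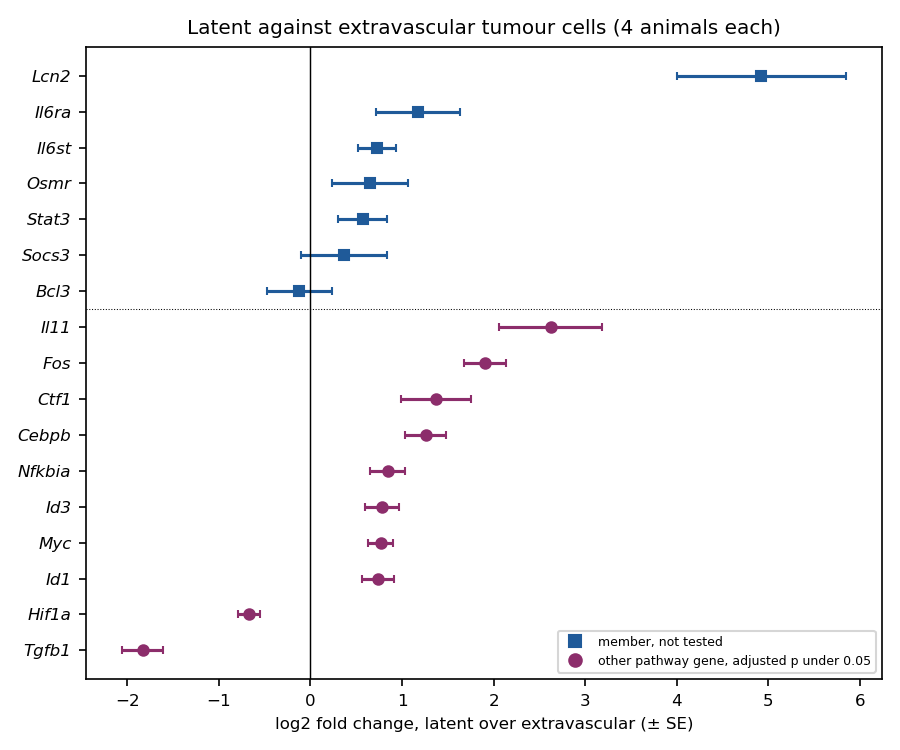
Log2 fold change of latent over extravascular TCs (4 animals each) for the members other than Lrg1 (squares, above the dotted line) and the other pathway genes called and named in the text (circles), with SE bars. Members (blue) were not tested, and purple marks an adjusted p under 0.05 in edgeR. Lcn2 lies furthest to the right and Tgfb1 furthest to the left.

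Of the 61 other pathway genes tested in TCs, 9 were higher and 2 lower in latent than in extravascular cells by edgeR, where 8.57% of all 19249 genes were called, with 3.6% called higher. Of the ligands, Il11, a gp130 cytokine, stood at 27.5, 7.76, 3.90 and 11.3 CPM in latent and at 2.10, 3.05, 0.98 and 1.29 CPM in extravascular cells (2.62 ± 0.56 log2, adjusted p = 0.0109). Ctf1, encoding cardiotrophin-1, was higher by 1.37 ± 0.38 log2 (adjusted p = 0.0433). Il6 stood at 0.24 CPM or less in the mean of every gate and Lif between 1.56 and 6.21 CPM.

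Of the 15 targets, 3 were higher and 1 was lower in latent cells. Fos rose from 79.2 ± 30.2 to 327 ± 42.9 CPM (SD, n = 4, 1.90 ± 0.23 log2, adjusted p = 0.000227), Cebpb by 1.26 ± 0.22 log2 (adjusted p = 0.00339) and Myc by 0.77 ± 0.14 log2 (adjusted p = 0.00329). Hif1a, the oxygen-regulated factor, fell by 0.67 on the log2 scale (adjusted p = 0.00403), a call that limma-trend did not make (adjusted p = 0.838). Among the partners of Lrg1 in TGF-β signalling, Tgfb1 fell by 1.83 on the log2 scale (adjusted p = 0.000244), from 9.51 to 13.4 CPM in the extravascular animals to 2.73 to 4.28 CPM in the latent ones, and Id1 (0.74 ± 0.18 log2, adjusted p = 0.0206) and Id3 (0.78 ± 0.19, adjusted p = 0.0202) rose. Nfkbia, the NF-κB inhibitor and target, rose by 0.84 ± 0.20 log2 (adjusted p = 0.0169), and the acute-phase list had 0 of 7 called. The median log2 fold change was 0.22 over the 61 genes, 0.65 over the 7 members other than Lrg1 and 0.03 over all genes. The call of Ctf1 was lost without any single animal of the 8 (adjusted p from 0.0625 to 0.104), that of Id3 without any of 4, and those of Id1 and Nfkbia without any of 2, whereas Il11, Fos, Cebpb, Myc, Hif1a and Tgfb1 were called without each animal in turn.

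The proliferative cells entered the fit as 1 sum, which was assumed to vary like the other gates. In proliferative versus extravascular cells 2 of the 61 genes were called, where 0.696% of all genes were, Fos (1.65 ± 0.32 log2, adjusted p = 0.0364) and Myc (1.00 ± 0.20, adjusted p = 0.0404), and of the 4 extravascular animals leaving out any of 2 ended the first call and leaving out any ended the second. In extravascular versus intravascular cells Myc was the 1 gene called (0.75 ± 0.14, adjusted p = 0.0314), where 0.951% of all genes were. This call was lost without any of 6 of the 8 sums, and with the animal as a block 0 genes were called (adjusted p of Myc 0.0974). For latent over proliferative cells the median log2 fold change of the 61 genes was 0.10, against 0.08 over all genes.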

How the data were processed

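Single cells were sorted into plates and sequenced by a modified SMART-Seq2 protocol with single-end reads and no molecular identifiers. The authors quantified reads by Salmon (release 0.7.2) against transcripts of GRCm38 and summed transcripts to genes, and the deposited raw tables hold these estimated counts per gene and cell. The release of the gene annotation is not given in the sources used here. The authors then filtered cells and divided each cell by a panel of housekeeping genes. The deposited filtered tables hold these values times 10000 on a log10 scale, log10(value + 1). The deposited annotation gave the animal, gate and sort day of each cell, and no per-sample column was left unused.

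Estimated counts of the cells kept by the authors (2479 ECs and 1566 TCs) were rounded and summed per animal and group, since animals and not cells are the replicates. CPM are reads per 1000000 reads of such a sum. The main test was the quasi-likelihood test of edgeR 4.0.16 (R 4.3.3) with TMM normalisation, its default filter on low counts and Benjamini-Hochberg adjustment over all genes tested, with 0.05 as the threshold. All EC days shared a fit, as did all TC gates. The comparison of capillary with non-capillary ECs had the animal as a block. Alternatives were DESeq2 1.42.0, its size factors in edgeR, no filter, limma-trend (limma 3.58.1) on mean deposited log10 values, leaving out each animal, capillary ECs alone, and a block for the replicate. Shares of cells were also taken after thinning each cell to 50000 reads, and intervals at 95% and limits for a count of 0 (3 counts) cover counting error only. Doublets were not called again. On simulated counts with known changes, the fit for EC day 1.5 versus day 0 recovered 0% of 2-fold and 9.28% of 4-fold changes. For EC classes these shares were 0% and 1.03%, although 20.2% of all genes were called there in the data. For latent versus extravascular TCs they were 19.4% and 48.9%. A gene that was not called is therefore not shown to be unchanged.

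Intravascular and extravascular TCs of day 1.5 came from the same 4 animals in the annotation, and their deviations from the gate means correlated at 0.040, -0.0017, 0.017 and -0.0075.

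Tests of the 8 genes between EC classes and TC gates had been planned and are not reported, because those values chose the genes. The 8 genes, the pathway list, the marker lists and the tests were chosen with earlier results of these data known. The genes named are the 8 members, other pathway genes called in a comparison (at most 10 by smallest p, beyond which further called genes were picked with their values in view), the ligands with reads, receptors and Janus kinases for levels, and the 5 genes most correlated with Lrg1 among those with a mean of at least 10 CPM. One gene of the pathway list is counted but not reported here.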

Additional observations from a re-analysis of the deposited data

Results flagged for a closer look

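In 60 sets of 4 animals (each member's CPM and share of cells, by group) the highest or lowest animal was compared with the others by Dixon's ratio of the gap to the range. Chance alone passes about 1 in 20 such sets, and 2 were passed here. Socs3 in extravascular TCs stood at 4.56 CPM in 1 animal and at 1.72 to 2.06 CPM in the other 3. Bcl3 in intravascular TCs stood at 8.06 CPM in 1 animal and at 4.05 to 4.47 CPM in the other 3.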

How the results depend on the processing

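Of the pathway genes other than the members, in ECs DESeq2 called 1 for day 1.5 and 3 for day 3.5 against day 0 and 1 between the later days, and limma-trend 2 and 5 in the first pair of these, where edgeR called 0, and leaving out an animal left 0 to 0. By EC class 7 were called with limma-trend, 8 with no replicate block and 10 to 13 without an animal, against 15, and over all genes 6338 with DESeq2, 887 of 10511 with limma-trend and 971 of 13314 with no replicate block, against 3687. For extravascular versus intravascular TCs 7 of 61 pathway genes were called with DESeq2 and 12 of 48 with limma-trend. Over all genes these called 1325 of 19249 and 2004 of 13283, against 183 of 19249 with edgeR. With the replicate block 0 pathway genes were called and without an animal 0 to 3, against 1. For latent versus extravascular TCs limma-trend called 32 of the 48 it tested, where it called 5350 of all 13283 genes. Without an animal 8 to 12 were called, against 11 of 61. Calls are not given for comparisons with the proliferative cells, which entered as 1 sum. The cause of these differences between settings was not tested.

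The members' log2 fold changes, which were not tested, turned sign in some settings. For EC day 1.5 over day 0, Socs3 (-0.41) was 0.58 in capillary cells and 0.33 with limma-trend. It was 0.83 with the replicate block and 0.62 with sort day as a covariate. Stat3 (-0.094) was 0.48 with limma-trend, 0.14 with the block and 0.70 with sort day. Osmr (-0.47) was 0.13 in capillary cells and 0.34 with limma-trend. For day 3.5 over day 1.5, sort day gave Bcl3 0.62, Il6st 0.40 and Il6ra 0.27. Lrg1 there ran from -0.17 to 1.61 without an animal. By EC class the log2 fold change of Il6ra was -0.0054 with DESeq2, -0.0035 with its size factors, -0.30 with limma-trend and -0.89 with no replicate block, and from -0.32 to 0.81 without an animal. That of Bcl3 was -0.075 with limma-trend. For extravascular versus intravascular TCs limma-trend gave Socs3 -0.19, Stat3 0.045 and Bcl3 -0.22, and leaving out an animal gave Osmr -0.41 to 0.071 and Bcl3 -0.24 to 0.49. For latent versus extravascular TCs limma-trend gave Bcl3 0.20, and leaving out an animal -0.32 to 0.32. For proliferative versus extravascular TCs limma-trend gave Stat3 0.25, and leaving out an animal gave Bcl3 -0.072 to 0.56. For latent versus proliferative TCs Osmr ran from -0.17 to 0.36.

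With sort day as a covariate, chosen after seeing the data, the log2 fold change of Lrg1 over day 0 was 2.27 on day 1.5 and 4.11 on day 3.5 and that of Bcl3 2.26 and 2.88. EC animals of the same replicate number shared only that number (correlations of -0.037 to 0.038), and the replicate block called 0 of the pathway genes between EC days. No block was fitted for latent or proliferative TCs, and the labelled replicates of proliferative TCs were not separated, because the annotation gives all proliferative cells to 1 animal.

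With 3 or 4 animals a group and single cells holding much of the reads of sparse genes, levels of Il6ra, Socs3 and Bcl3 were imprecise. When at least 10 reads were required or cells were thinned, 106 shares of cells moved by more than the spread between animals and 22 did not, so that shares hold only at the depth given.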
